A study of Arabidopsis thaliana with 45 samples.

Results

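The module holds 150 Arabidopsis genes whose transcripts were higher at D40 than at D13 in first true leaves of Col-0 plants labelled as grown in long days, and lower at D40 than at D13 in those labelled as grown in short days. It was chosen from measured values. Of 37336 genes in the table, the 16411 with a mean of at least 50 in Col-0 long-day leaves at D40 were ranked by the smaller of their rise in long days and their fall in short days, and the first 150 were kept. Its working name speaks of genes that go up with age in long days only; the rule asks for more than that, a fall in short days as well. In all, 2103 ranked genes rose in long days and fell in short days on these means. The last members inside, AT2G09165 and AT5G43790 (a pentatricopeptide repeat protein), had a smaller change of 0.95 and 0.94 on the log2 scale. The first genes outside, AT5G47790 and ZFP7 (a zinc finger protein), had 0.94 and 0.94.

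RNA sequencing of polyadenylated RNA was done on first true leaves, with 3 libraries in each of 15 groups. The days are D13, D18, D23, D30 and a last one, which is D45 for tcx5/6 and D40 for Col-0. The tcx5/6 leaves grew in long days (16 h light, 8 h dark), and the Col-0 leaves either in those long days or in short days (8 h light, 16 h dark). All plants share the Col-0 background, and the day carries the unit DAG, which the labels do not spell out. What a replicate is (a plant, a pool of plants, a second library of 1 RNA) is not in the labels, so a p-value here speaks only of library-to-library spread, possibly technical. The labels also give neither the hour of harvest nor the alleles of tcx5/6. Values are read counts per gene divided by a size factor for each library, called normalised counts here, and libraries held 16824317 to 40252818 reads in genes.

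The levels of some genes do not follow the labels, and every direction below rests on the labels. Without the alleles it is not known whether reads over TCX5 and TCX6 lie outside a disrupted stretch, so their levels check the genotype only in part. TCX5, a CXC-domain protein gene named in the tcx5/6 line, had a lowest value of 231 and a highest of 522 in the libraries labelled tcx5/6, against 271 and 525 for Col-0 long days and 54.1 and 216 for those labelled short days. TCX6, the other gene named in that line, had a lowest value of 0 and a highest of 142 in the libraries labelled tcx5/6, with 15.7 and 418 for Col-0 long days, and 219 and 2200.0 for those labelled short days. QQS, a gene known for variable silencing by DNA methylation, was at 559 to 2401 in the libraries labelled tcx5/6, at 252 to 1051 in Col-0 long days and at 0 in all 15 libraries labelled short days. FT, the mobile flowering signal made in leaves, had at least 3 reads in 2 of 15 libraries labelled tcx5/6, in 14 of 15 of Col-0 long days and in 11 of 15 labelled short days. Markers of the shoot meristem summed to no more than 18.7 in any library. Those of the flower summed to as much as 238, in Col-0 long days at D18. Those of the root summed to as much as 479, in tcx5/6 at D13, with 2 of 4 at 0 in all 3 libraries.

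Day length reaches leaf transcripts through photoreceptors and the circadian clock: the clock gives many genes a daily peak, and light that falls at that hour alters their output. In Arabidopsis, long days promote flowering through CONSTANS and FT, which CYCLING DOF FACTOR proteins repress, and plants that flower early also age their leaves on another schedule than plants kept vegetative in short days. Leaf ageing itself brings together hormone signals, transcription factors of the WRKY, NAC and AP2/ERF families, and the dismantling of chloroplasts.

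On the values that chose them, members had a median rise of 1.54 in long days, from 0.96 to 8.02 on the log2 scale, where all ranked genes had a median of 0.30. Their median change in short days was -1.50, from -6.24 to -0.94, where all ranked genes had 0.22. These numbers restate the rule and carry no test. Members were low to moderate in level: the median of their D40 means in Col-0 long days was 169, 39 members lay under 100 there and 15 lay over 1000. At D13 the short-day mean was above the long-day mean in 139 of 150 members (92.7%), against 48.9% of the ranked genes. Both D13 groups entered the rule, which favours this order, so nothing is read from it. In bulk leaves, fewer cells of a type and less RNA per cell cannot be told apart.

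**Figure D1:**
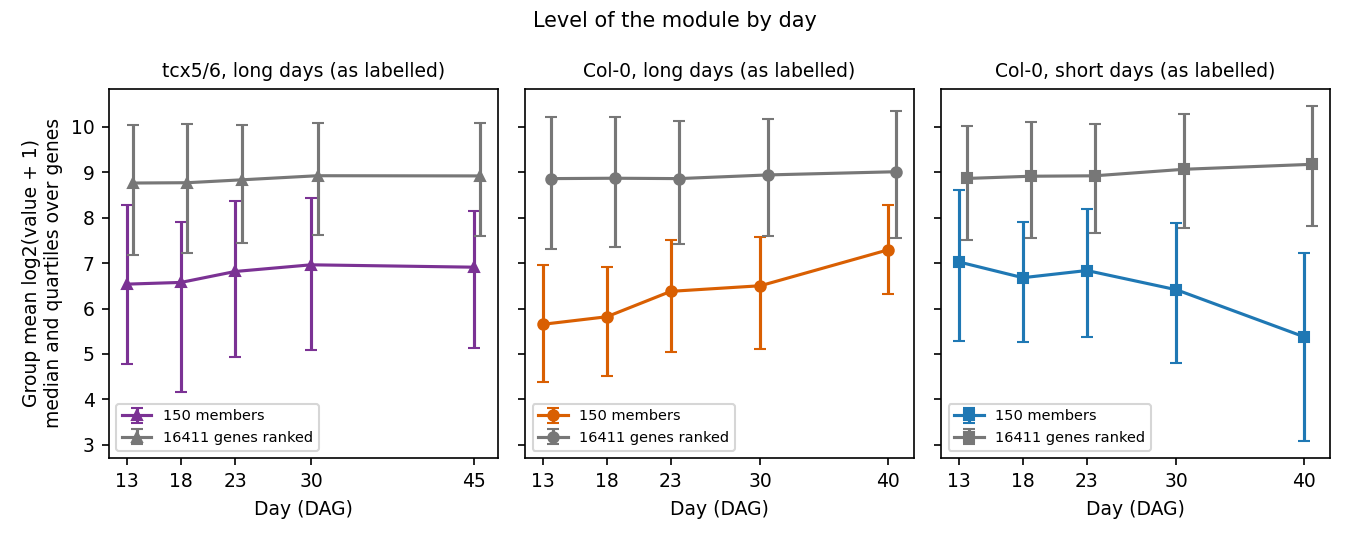
Median and quartiles over genes of the group mean log2(value + 1) by day (DAG), for the 150 members (coloured) and the 16411 ranked genes (grey), in tcx5/6 long days, Col-0 long days and Col-0 short days. The members' median at D40 is 7.29 in Col-0 long days and 5.38 in Col-0 short days, while the grey medians stay between 8.76 and 9.18 in the 15 groups.

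Between the ends, the median member moved by stages in both day lengths. In Col-0 long days the median over members of log2(value + 1) was 5.65 at D13, 5.82 at D18, 6.38 at D23, 6.50 at D30 and 7.29 at D40. In Col-0 short days it was 7.03, 6.68, 6.84, 6.41 and 5.38 on the same days. The panels of the module by day show the long-day median below the short-day median at D23 and above it at D30. Gene by gene, however, the median difference of long days from short days at D30 was -0.19, with 68 of 150 members above 0. The largest single rise between neighbouring days in long days fell between D30 and D40 in 83 members, between D18 and D23 in 37, between D23 and D30 in 16 and between D13 and D18 in 14. The interval from D30 to D40 held 55.3% of members and 34.2% of ranked genes, and that from D18 to D23 held 24.7% of members and 20.5% of ranked genes. In short days the largest single fall came between D30 and D40 in 65 members, between D13 and D18 in 38, between D23 and D30 in 34 and between D18 and D23 in 13; D30 to D40 held 43.3% of members and 22.1% of ranked genes. Steps that end at D40 or start at D13 contain values of the rule, which favours large first and last steps, so these counts are a description only. The most frequent pairs were the last interval in both day lengths (33 members) and a long-day rise after D30 with a short-day fall before D18 (27 members). A long-day rise between D18 and D23 with a short-day fall between D23 and D30 was seen in 17 members.

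The ends rest on few reads for part of the module. In the 3 short-day libraries at D40, 48 members (32.0%) were listed at 0 in at least 1 library and 10 in all 3, against 1.68% of the ranked genes with at least 1 such library. Among the D40 libraries of Col-0 long days, replicate 1 was the highest library in 71 members, replicate 2 in 37 and replicate 3 in 42. In 9 members replicate 1 lay at least 5 times above both others: SYP123, for example, a syntaxin known from root hairs, had 205, 0 and 1.19. ERF53 was such a case for replicate 2, with 12.3, 254 and 39.3. Ranking the genes without Col-0 long-day D40 replicate 1, 2 or 3 kept 122, 126 and 121 of the 150 members.

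The intermediate days D18 and D30 were not used to choose members, and they allow a test. Between D18 and D30 in Col-0 long days, 42 members (28.0%) rose and 5 (3.33%) fell, where 19.3% of the 23493 genes tested rose and 21.6% fell (limma, adjusted p under 0.05). All 150 members passed the filter on low values, toward which their D40 libraries count. The median log2 change of members was 0.62, against 0.01 over all genes tested, and it was above 0 in 114 of 150. In Col-0 short days over the same interval 15 members (10%) rose and 31 (20.7%) fell, where 22.4% of genes tested rose and 21.0% fell, so the share that fell is near the background and the share that rose is below it. With only the 2 short-day groups in the fit 29 members (19.3%) rose and 43 (28.7%) fell, against 31.3% and 29.0% of all genes tested. The median change in short days was -0.15, against 0.03 over all genes tested. The 5 members that fell in long days became 3 without Col-0 long-day D18 replicate 1 or 2, and 2 without D30 replicate 1.

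The change in long days minus the change in short days was called positive in 29 members (19.3%) and negative in 0 (0.0%), where 4.41% of genes tested were positive and 7.04% negative. With only the 4 groups in the fit 34 members (22.7%) were positive, against 8.86% of all genes tested, and with quantile normalisation 34 (22.7%), against 9.25%, with 0 negative in both. At an unadjusted p under 0.05, 39 members (26.0%) were positive and 1 (0.667%) negative, against 9.65% and 13.1% of all genes tested. With edgeR's quasi-likelihood test on the recovered reads the counts were 29 and 0, and with DESeq2 30 and 0. Without Col-0 short-day D18 replicate 2 there was 1 negative member. The median of this difference was 0.61 over members and -0.01 over all genes tested. This comparison uses the same 12 libraries as the 2 changes it sets against each other, so the 3 sets of values are not independent of one another. Of the 150 members, 15 rose in long days and fell in short days, 9 rose in both, 4 fell in both, and 0 fell in long days while rising in short days. The shares were 10%, 6.00%, 2.67% and 0% of members, against 0.558%, 11.5%, 13.9% and 1.07% of all genes tested. Among the 15, RTFL8, AT3G44450, AT3G18320, AT1G79160, TSBtype2 and AT3G56260 lost the long-day call, the short-day call or both without single libraries. The short-day call of AT3G44450 was lost whichever library of its groups was left out. The 15 also hold both genes of the overlapping pairs AT1G05523 with AT1G20070, and AT1G08645 with PPCK1. In the scatter of the 2 changes all 29 called members lie below the line of equal change.

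**Figure D2:**
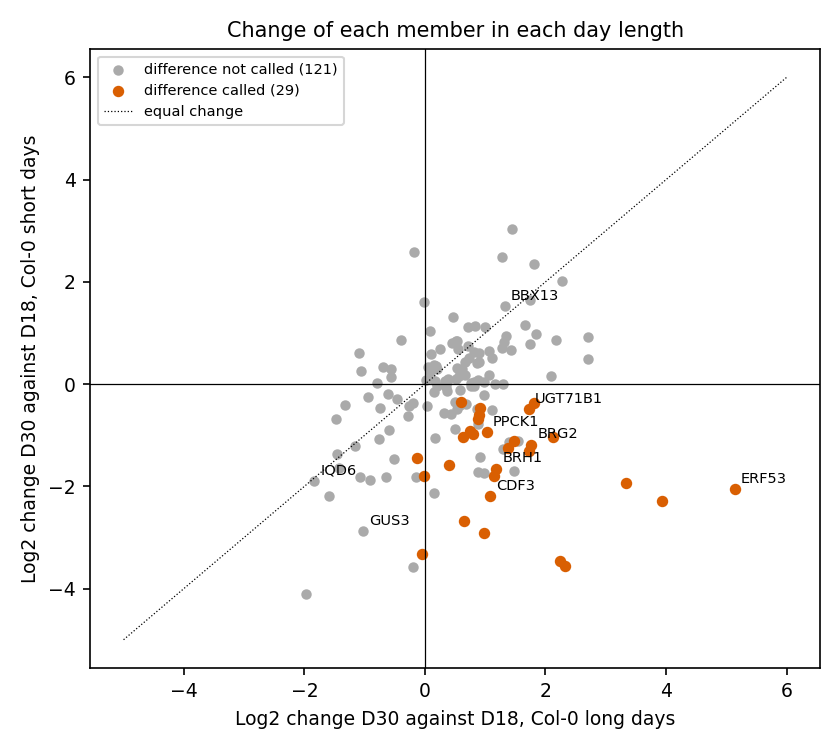
Log2 change at D30 against D18 of each of the 150 members in Col-0 long days (horizontal) and Col-0 short days (vertical). Orange points are the 29 members whose difference between day lengths was called by limma, whose change was higher in long days in all 29 cases.

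Clock genes moved in the same libraries, and their part in the module's values was not tested. Of 16 clock genes tested, 7 rose and 1 fell in Col-0 long days between D18 and D30, 5 rose and 6 fell in Col-0 short days, and 6 were positive and 3 negative in the difference; none is a member. Summed over the morning-phased genes LHY, CCA1, RVE8 and PRR9, the level was 1365 to 1753 at D30 and 346 to 531 at D18 in Col-0 long days. In Col-0 short days it was 1083 to 1231 at D30 and 2259 to 2425 at D18. Summed over the afternoon- and evening-phased genes TOC1, ELF4, LUX, GI, PRR5, PRR3 and FKF1, it was 6689 to 6987 in short days at D40 and 22608 to 23966 at D13, whereas long-day leaves had 20345 to 22065 at D40 and 19247 to 20807 at D13. None of these clock genes was at 0 in all 3 libraries of a group. Markers of other cell types moved too, and their part was not tested either. Both myrosin cell markers, TGG1 and TGG2, were detected throughout, with a summed level of 4249.7 to 11697 at D30 and 66999 to 159659 at D18 in Col-0 long days, and 4236 to 4486 at D30 and 24742 to 25286 at D18 in Col-0 short days. The 8 stomatal lineage markers summed to 947 to 1157 at D30 and 1131 to 1714 at D18 in long days, with 3 of 8 at 0 in all D30 libraries, and to 687 to 781 at D30 and 1119 to 1227 at D18 in short days. The 8 vascular markers summed to 20979 to 28892 at D30 and 24525 to 30688 at D18 in long days, which overlap, and to 16613 to 17061 at D30 and 13214 to 13451 at D18 in short days, which do not. The 3 trichome markers summed to 23.9 to 39.4 at D30 and 61.3 to 75.4 at D18 in long days, and to 21.7 to 45.3 at D30 and 52.5 to 124 at D18 in short days. The split of the clock list into morning and later genes was made after the values were seen.

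CDF3 (AT3G47500) is a cycling Dof factor of the family that represses CONSTANS and FT. In Col-0 long days its 3 libraries had 1158, 1347 and 1311 at D30 and 553, 707 and 561 at D18. In Col-0 short days they had 536, 444 and 517 at D30 and 2399, 2252 and 2169 at D18. The groups of the 2 days do not overlap in either day length, and they lie in opposite order. The log2 change was 1.07 ± 0.19 (SE; limma adjusted p = 2.2e-05) in long days and -2.19 ± 0.19 (SE; limma adjusted p = 2.2e-11) in short days, with a difference of 3.26 ± 0.27 (SE; limma adjusted p = 7.6e-11). At D23, between those days, CDF3 stood at 2608 ± 94.4 in long days and 2881 ± 65.6 in short days (SD, n = 3 each). The module has 3 further Dof genes, a family noticed after the members were known: OBP2, AT2G34140 and AT2G28510, none of them called in the difference.

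BBX13 (AT1G28050), a B-box protein with a CCT domain as in CONSTANS, behaved otherwise, since its D30 libraries lay above its D18 libraries in both day lengths. It had 2137, 2497 and 2081 at D30 and 1015, 913 and 761 at D18 in long days. It had 1985, 1876 and 1893 at D30 and 650.3, 659.8 and 679 at D18 in short days. The log2 change was 1.33 ± 0.12 (SE; limma adjusted p = 1.5e-10) in long days and 1.53 ± 0.12 (SE; limma adjusted p = 5.2e-12) in short days. Its short-day fall came later, with 516, 415 and 495 at D40, a value used in the choice of members.

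The AP2/ERF family, whose members bind DRE or GCC-box elements, contributes DREB2C, ERF53, CRF10 and CRF11. ERF53 (AT2G20880) had 323, 418 and 343 at D30 and 14.6, 12.6 and 4.02 at D18 in long days. In short days it had 24, 23.2 and 18.4 at D30 and 109, 59.7 and 125 at D18. The long-day libraries of D30 are the highest of the 12 and those of D18 the lowest, and no 2 groups among the 4 overlap. The difference between day lengths was 7.20 ± 0.92 (SE; limma adjusted p = 5.1e-07), the largest among the 29 called members. CRF11 (AT3G25890), a cytokinin response factor, rose in both day lengths, by 1.65 in long days and 1.16 in short days on the log2 scale (limma adjusted p = 6e-07 and 0.00011). Its long-day libraries had 319, 364 and 238 at D30, against 584, 529 and 593 in short days, so the short-day groups stayed above the long-day groups at D30.

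BRG2 (AT1G79110) and BRG1 (AT5G45100) are RING-type ubiquitin ligases of the BOI family, which bind DELLA proteins, and RGL2 (AT3G03450) is a DELLA repressor best known from seed germination. BRG2 had 837, 466 and 479 at D30 and 162, 211 and 139 at D18 in long days. In short days it had 311, 351 and 399 at D30 and 869, 749.7 and 788 at D18. The days do not overlap in either day length, and the order is opposite, with a difference of 2.95 ± 0.40 (SE; limma adjusted p = 1.2e-06). BRG1 showed a smaller difference of 1.32 ± 0.42 (SE; limma adjusted p = 0.033), beside a called short-day change of -1.44. The call was lost without any 1 of 7 libraries: long-day D18 replicate 1 or 3, long-day D30 replicate 1, short-day D18 replicate 1 or 2, and short-day D30 replicate 1 or 2. The values were then 1.103 to 1.34, with limma adjusted p = 0.11 at the lowest value and 0.051 at the highest.

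BRH1 (AT3G61460) encodes a RING-H2 protein whose transcript is known to respond to brassinosteroid. It had 1189, 1189.8 and 1288 at D30 and 451, 567 and 611 at D18 in long days. It had 264, 284 and 269 at D30 and 855, 808 and 913 at D18 in short days. The difference was 2.83 ± 0.39 (SE; limma adjusted p = 2.1e-06), and the short-day D30 libraries are the lowest of the 12. RGL2 fell in short days by 1.81 on the log2 scale (limma adjusted p = 0.0046), with 21.4, 26.2 and 21.7 at D30 and 55.4, 97.9 and 107 at D18. It was not called in the difference between day lengths. In tcx5/6 long days RGL2 also fell between D18 and D30, by log2 changes of -2.96 to -2.06 without single libraries. At D30 RGL2 was lower in Col-0 long than short days, at -1.76 to -0.67 without single libraries. That call was lost without long-day replicate 1 or any short-day replicate. Of the 17 gibberellin genes tested, RGL2 included, 3 were positive and 1 negative in the difference between day lengths, with a median of 0.09.

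Metabolic enzymes form a further group. PPCK1 (AT1G08650) is the kinase that phosphorylates phosphoenolpyruvate carboxylase and so raises its activity. It had 1955, 1627 and 1653 at D30 and 1109, 689.7 and 820.3 at D18 in long days. It had 1228, 1304 and 1232 at D30 and 2435, 2353 and 2416 at D18 in short days. The difference was 1.96 ± 0.31 (SE; limma adjusted p = 2.1e-05), and the highest values of the whole course were the long-day libraries of D40, at 9279, 5033 and 5489.8. PPCK1 overlaps the opposite-strand member AT1G08645 over 22% of its exon length, and reads of overlapping genes cannot be told apart in these non-stranded libraries.

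UGT71B1 (AT3G21750), a UDP-glucosyltransferase, had 488, 489 and 389.7 at D30 and 162, 139.8 and 113 at D18 in long days. It had 566, 510.3 and 489 at D30 and 669, 756 and 774 at D18 in short days. Its difference was 2.21 ± 0.32 (SE; limma adjusted p = 4.4e-06), beside a long-day rise of 1.72. TT5 (AT3G55120), the chalcone isomerase of flavonoid synthesis, had 363, 572 and 422 at D30 and 199, 101 and 98.5 at D18 in long days. It had 228, 179.5 and 180.3 at D30 and 283, 219 and 258 at D18 in short days. The difference was 2.19 ± 0.42 (SE; limma adjusted p = 0.00027), and the long-day groups do not overlap. Of 13 flavonoid and anthocyanin genes tested, TT5 was the 1 positive call in the difference and 2 were negative, with a median of 0.55.

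SAPX (AT4G08390), the stromal ascorbate peroxidase that removes hydrogen peroxide in chloroplasts, had 990.3, 491 and 463 at D30 and 566, 295 and 209 at D18 in long days. It had 1275, 1287 and 1334 at D30 and 2018, 1991 and 1892 at D18 in short days. The difference was 1.49 ± 0.37 (SE; limma adjusted p = 0.0045). The call was lost with only the 4 groups in the fit (limma adjusted p = 0.0504). The long-day groups overlap, and every short-day library lies above every long-day library of the 2 days. TSBtype2 (AT5G38530), a tryptophan synthase beta chain, differed by 1.66 ± 0.32 (SE; limma adjusted p = 0.00029), with a short-day fall to 517, 528 and 584 at D30, against 958, 1195 and 1196 at D18. RTFL8 (AT2G39705), a small peptide of the ROTUNDIFOLIA-like family, differed by 2.63 ± 0.73 (SE; limma adjusted p = 0.012), and lost its call without Col-0 short-day D30 replicate 2 (2.23, limma adjusted p = 0.056).

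**Figure D3:**
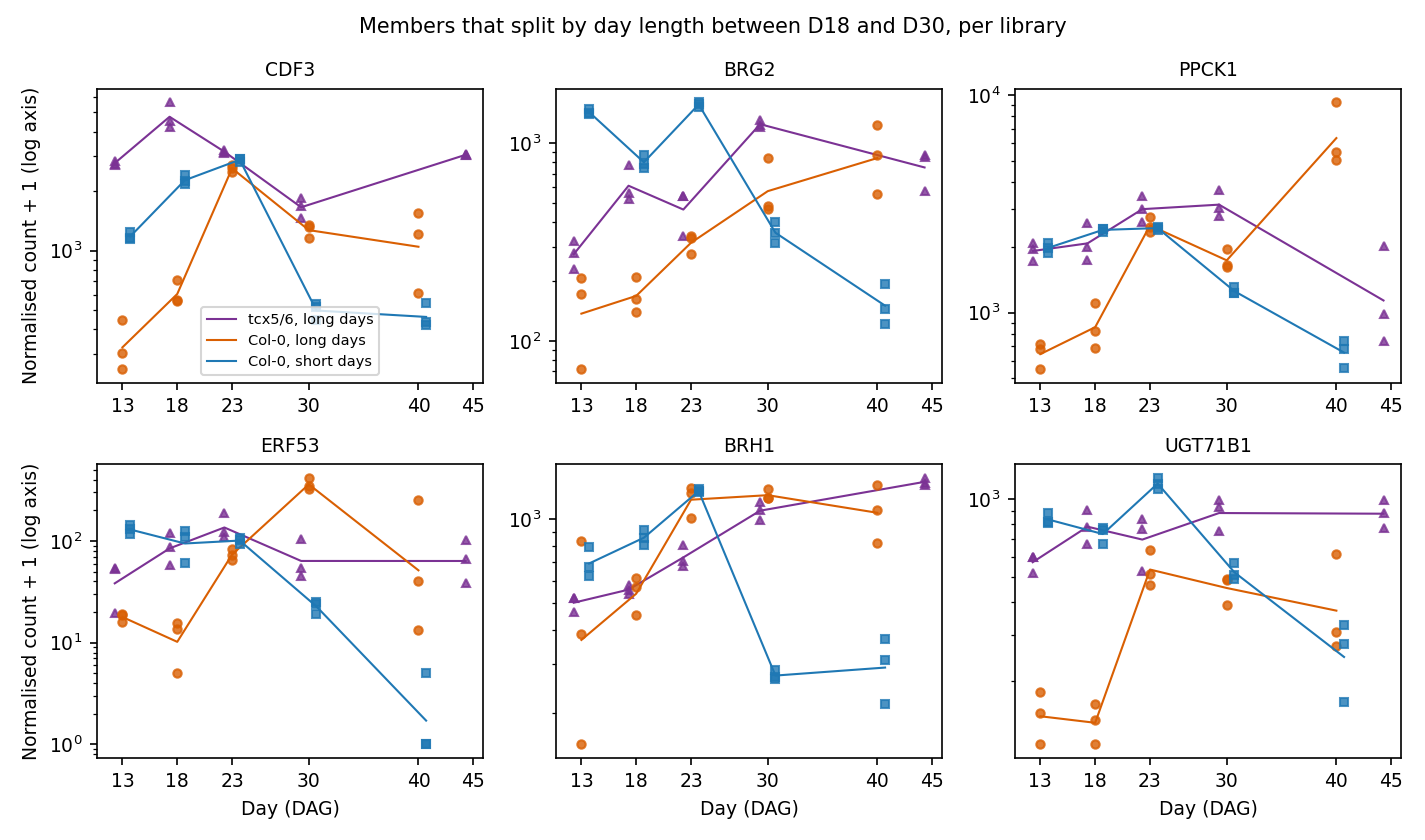
Normalised count + 1 (log axis) of 6 members by day (DAG) in each library: tcx5/6 long days (triangles), Col-0 long days (circles) and Col-0 short days (squares), with lines through the means of log values. At D30 the Col-0 long-day circles lie above the short-day squares for CDF3, BRG2, PPCK1, ERF53 and BRH1, and overlap them in none of these; for UGT71B1 they overlap.

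The 3 members CDF3, BRG2 and ERF53 are shown with the letters of their promoters because each rose in long days and fell in short days between D18 and D30. The sequences run 5′ to 3′ on the gene's own strand from 250 bases before the start to 50 after it, from RefSeq's TAIR10.1 assembly (minus strand for CDF3, plus strand for BRG2 and ERF53). Capitals mark matches on either strand to any motif searched. The short cores are CCGAC for the DRE, ACGTG for the abscisic acid response element (ABRE), TTGAC for the W-box and AAACCCT for the telo-box. The clock-linked motifs are AAATATCT, the evening element, and AAAAATCT, a site bound by CCA1. The rest are CACGTG for the G-box, GCCGCC for the GCC-box, GATAAG for the I-box, TGGGCC for site II and TATAAA for the TATA-box.
CDF3: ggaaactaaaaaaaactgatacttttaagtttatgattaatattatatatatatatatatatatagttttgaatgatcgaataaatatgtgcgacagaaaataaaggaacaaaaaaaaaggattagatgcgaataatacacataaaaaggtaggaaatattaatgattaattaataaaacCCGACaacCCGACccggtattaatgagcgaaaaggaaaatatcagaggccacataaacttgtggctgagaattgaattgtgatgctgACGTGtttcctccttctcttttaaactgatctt
BRG2: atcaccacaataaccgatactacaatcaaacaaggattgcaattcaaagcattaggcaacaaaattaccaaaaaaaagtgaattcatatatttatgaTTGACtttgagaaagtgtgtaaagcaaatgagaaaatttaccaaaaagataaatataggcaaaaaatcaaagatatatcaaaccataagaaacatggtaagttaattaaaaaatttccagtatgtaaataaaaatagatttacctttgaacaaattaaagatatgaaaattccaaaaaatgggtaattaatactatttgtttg
ERF53: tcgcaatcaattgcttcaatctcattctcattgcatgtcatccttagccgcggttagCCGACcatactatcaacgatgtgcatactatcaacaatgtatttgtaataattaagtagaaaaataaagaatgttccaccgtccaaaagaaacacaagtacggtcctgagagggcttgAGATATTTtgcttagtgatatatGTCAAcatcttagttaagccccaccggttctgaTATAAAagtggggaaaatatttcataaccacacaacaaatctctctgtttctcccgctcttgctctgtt

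CDF3 holds the DRE core at 2 places, 70 and 62 bases before the start, and ERF53 holds it once. BRG2 holds a W-box core alone. ERF53 holds an evening element on the opposite strand, 75 bases before the start. Over the module, the evening element stood in 17 of 150 promoters (11.3%), against 6.05% of the promoters of ranked genes and 5.08% of all promoters. The DRE core was in 20.7%, against 16.7% and 15.3%. The G-box was in 5 promoters (3.33%), against 8.82% and 6.46%. An ABRE core lies within each G-box, and ABRE cores stood in 24.7% of members, against 27.6% and 24.6%. The shares for the other motifs were 53.3% (W-box core), 8.67% (CCA1 binding site), 2.67% (GCC-box), 10.7% (I-box), 11.3% (site II), 10% (telo-box core) and 56.7% (TATA-box) in members. In all promoters they were 49.5%, 7.13%, 2.72%, 15.1%, 13.0%, 9.94% and 48.8% in the same order, and in the promoters of ranked genes 51.7%, 8.22%, 2.84%, 15.3%, 19.5%, 9.28% and 49.9%. These are matches of letters and carry no test.

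Long-day leaves were not simply above short-day leaves at D30. In that comparison 21 members (14.0%) were higher in long days and 29 (19.3%) lower, near the 15.6% and 21.0% of all genes tested, and the median log2 difference was -0.19, against -0.05 over all genes tested. With quantile normalisation, which moved the median of all genes by 0.16, 38 members (25.3%) were higher and 22 (14.7%) lower, against 5251 and 4096 of the 23493 genes tested, and the members' median turned to 0.10. With only the 2 groups in the fit 37 (24.7%) were higher and 36 (24.0%) lower, against 22.8% and 27.9% of all genes tested. These libraries are shared with the changes between D18 and D30 above. CDF3 was higher in long days by 1.35 ± 0.19 (SE; limma adjusted p = 6e-07) and BRH1 by 2.16 ± 0.28 (SE; limma adjusted p = 1.2e-07), with the D30 values already given.

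RPI2 (AT2G01290), a ribose-5-phosphate isomerase of the pentose phosphate pathway, had 415, 390.2 and 319 in long days, against 850.3, 899 and 778 in short days at D30, a log2 difference of -1.17 ± 0.13 (SE; limma adjusted p = 4.7e-09). IQD6 (AT2G26180), a calmodulin-binding protein of microtubules, had 0.956, 10.1 and 6.99 in long days, against 119, 116 and 138 in short days, a difference of -4.49 ± 0.69 (SE; limma adjusted p = 2.7e-06). Every long-day library lay below every short-day library for both genes. TERT (AT5G16850), the telomerase reverse transcriptase, and DBP1 (AT2G25620), a protein phosphatase that binds DNA, were also lower in long days, with log2 differences of -2.36 and -1.53 (limma adjusted p = 1.7e-05 and 9.3e-05). PCC1 (AT3G22231), a small protein under pathogen and clock control, had 234, 189.6 and 818 in long days, against 8505, 8642 and 8723 in short days, a difference of -4.70 ± 0.78 (SE; limma adjusted p = 9.6e-06). At D40, a day used for the choice, IQD6 had 96.9, 38.7 and 32.1 in long days and 209, 90.5 and 198 in short days.

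**Figure D4:**
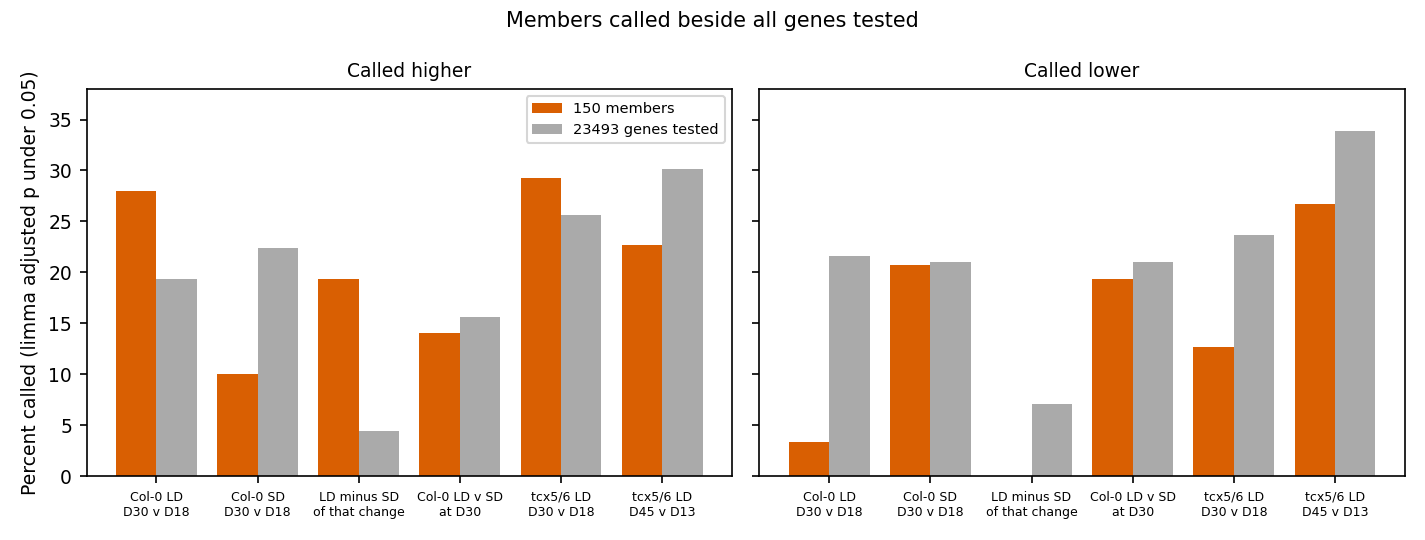
Percent called higher (left) and lower (right) by limma at an adjusted p under 0.05, for the 150 members (orange) and the 23493 genes tested (grey), in 6 comparisons of libraries that the choice of members did not use. The members' bar stands above the grey bar by the widest margin in the difference between day lengths, at 19.3% and 4.41% called higher.

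The libraries labelled tcx5/6 were not used in the choice of members at any day. In them 44 members (29.3%) rose between D18 and D30 and 19 (12.7%) fell, where 25.6% of genes tested rose and 23.7% fell, with a median log2 change of 0.29, against 0.00 over all genes tested. Over the whole course, D45 against D13, 34 members (22.7%) rose and 40 (26.7%) fell, where 30.1% of genes tested rose and 33.9% fell. The median was then -0.06, against -0.03 over all genes tested. It turned to 0.07 without tcx5/6 D45 replicate 3 and to 0.15 with quantile normalisation. Of the 42 members that rose in Col-0 long days between D18 and D30, 20 (47.6%) rose and 8 (19.0%) fell in tcx5/6; of the 4534 genes tested that rose in Col-0 long days, 59.7% rose and 5.14% fell there. The 2 changes use different libraries, and their difference was not tested. With only the D30 and D18 tcx5/6 groups in the fit, 28 members (18.7%) rose and 13 (8.67%) fell, against 14.1% and 16.3% of all genes tested.

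In tcx5/6, BBX13 had 2918, 2339 and 2678 at D30 and 78.7, 70 and 55.1 at D18, a log2 change of 5.27 ± 0.12 (SE; limma adjusted p = 1e-27). CCR1 (AT4G39260), a glycine-rich RNA-binding protein under cold and clock control, had 20724, 17518 and 19223 at D30 and 4170.4, 4302 and 4836 at D18, a change of 2.11 ± 0.20 (SE; limma adjusted p = 5e-11). PCC1 had 1433, 1413 and 5240.1 at D45 and 2.06, 7.58 and 0 at D13, a change of 9.53 ± 0.78 (SE; limma adjusted p = 4.9e-13) on the log2(value + 1) scale. CDF3 went the other way between D18 and D30, with 1679, 1460.2 and 1856 at D30 and 4237, 5624 and 4507 at D18, a change of -1.52 ± 0.19 (SE; limma adjusted p = 3e-08).

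Cell type markers and clock genes differed in the same libraries, and their part in these values was not tested. At D45 against D13 in tcx5/6, the stomatal lineage markers summed to 855 to 1046 at D45 and 5743 to 6402 at D13, with 4 of 8 at 0 in all D45 libraries. The myrosin cell markers summed to 1011 to 2154 at D45 and 89296 to 92911 at D13, and the vascular markers to 9548 to 14567 at D45 and 5840.1 to 6401 at D13. Between D18 and D30 the sums in tcx5/6 were 770.5 to 797 at D30 and 1424 to 1979.99 at D18 for the stomatal lineage, and 7537 to 9221 at D30 and 24708 to 52095 at D18 for myrosin cells. For the vasculature they overlapped, at 11015 to 12184 at D30 and 3288 to 12733.5 at D18. The trichome markers summed to 23.0 to 99.7 at D45 and 272 to 384 at D13. The summed level of the 4 morning-phased genes was 644 to 1256 at D30 and 9069 to 10909 at D18 in tcx5/6. The sum of the 7 afternoon- and evening-phased genes was 25258 to 36824 at D30 and 2479.9 to 3028 at D18. Of the 16 clock genes, 8 rose and 7 fell in that comparison. CCA1 (a morning-phased clock repressor) had 215, 287 and 245 at D30 and 4257, 5509.7 and 4540.4 at D18, and TOC1 (an evening-phased one) had 6256, 4751 and 6716 at D30 and 251, 199.99 and 216 at D18. Among the tcx5/6 groups alone, the plot of members and clock genes shows BBX13, CCR1 and TOC1 highest at D30, where CCA1 is lowest.

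**Figure D5:**
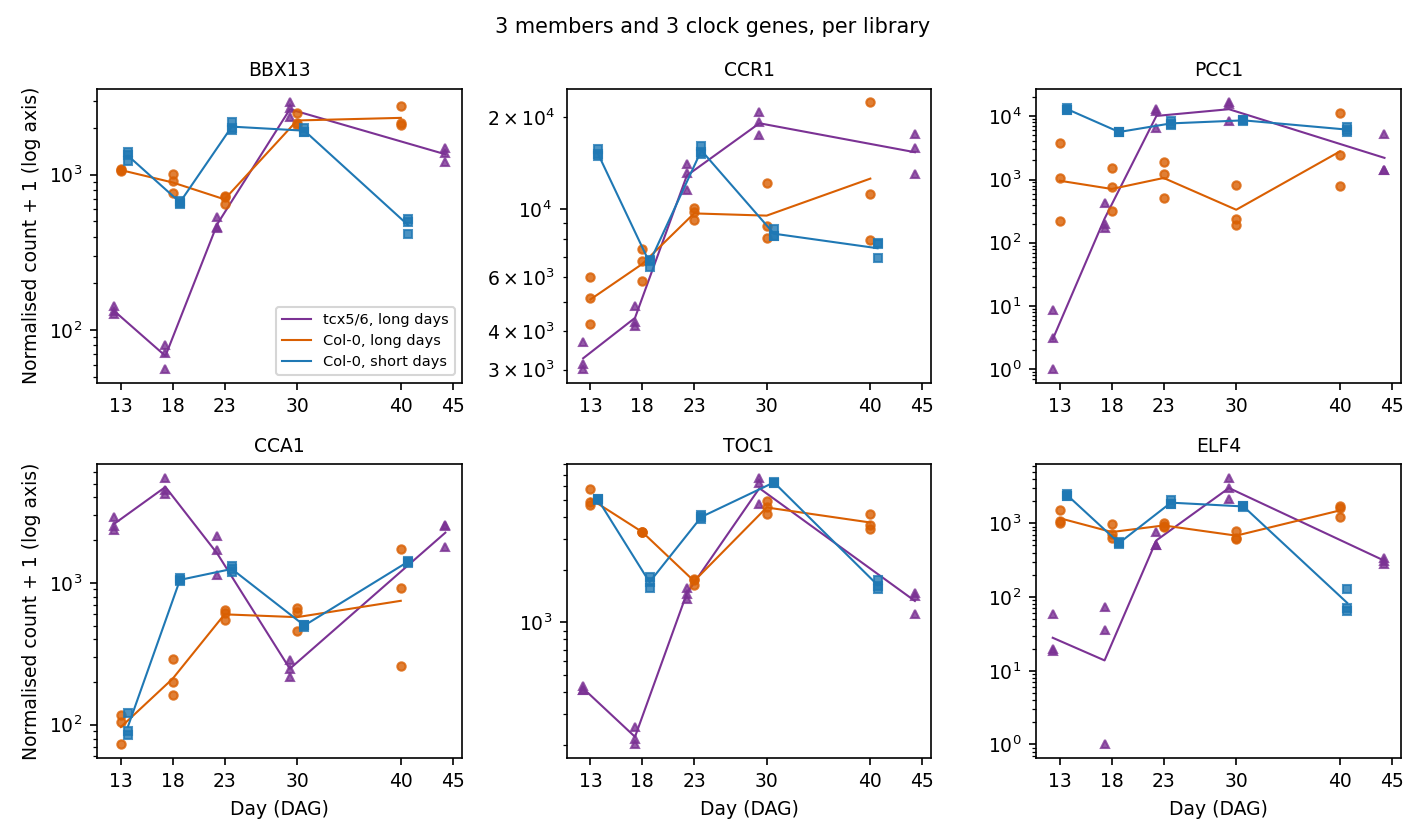
Normalised count + 1 (log axis) of the members BBX13, CCR1 and PCC1 and of the clock genes CCA1, TOC1 and ELF4 by day (DAG) in each library: tcx5/6 long days (triangles), Col-0 long days (circles) and Col-0 short days (squares), with lines through the means of log values. In tcx5/6, TOC1, ELF4, BBX13 and CCR1 are lower at D13 and D18 than at D30, and CCA1 is lowest at D30.

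DREB2C (AT2G40340), a heat-induced AP2/ERF factor, had 307, 217 and 253 at D30 and 0, 0 and 3.67 at D18 in tcx5/6, with 2 libraries at 0, a change of 7.27 ± 0.63 (SE; limma adjusted p = 7.9e-12) on the log2(value + 1) scale. WRKY42 (AT4G04450), a WRKY factor, had 1251, 531 and 762 at D30 and 12.8, 36 and 25.7 at D18 in tcx5/6, a change of 5.06 ± 0.65 (SE; limma adjusted p = 5.6e-08). WRKY42 also rose in Col-0 long days by 2.18 (limma adjusted p = 0.0072), with 144, 82.4 and 117 at D30 and 19.4, 33 and 21.1 at D18. WRKY27 (AT5G52830), a WRKY factor linked to bacterial wilt, rose in tcx5/6 between D13 and D45 by 3.01 (limma adjusted p = 0.00097), with 124, 164 and 65.7 at D45 and 30.9, 8.53 and 7.61 at D13.

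RLP18 (AT2G15040), annotated as a transcribed pseudogene of the receptor-like protein family, rose by 2.67 between D18 and D30 and by 5.69 over the whole course in tcx5/6 (limma adjusted p = 0.0033 and 3.1e-08). It had 858, 892 and 1563 at D45 and 13.4, 27.5 and 20.3 at D13. GSTF11 (AT3G03190), a glutathione transferase of aliphatic glucosinolate synthesis, had 372, 505 and 799 at D45 and 80.3, 55.9 and 55.8 at D13, a change of 3.06 ± 0.32 (SE; limma adjusted p = 2e-10). All of its exon length lies under NAC045 on the opposite strand, and the means of the 2 genes over 45 libraries were 290.0 and 291, so the value cannot be given to either gene. GUS3 (AT5G34940), a beta-glucuronidase, fell in tcx5/6 over the whole course by 4.03 (limma adjusted p = 1.2e-07), with 37.1, 17.3 and 11 at D45 and 304, 322 and 369 at D13. It also fell in Col-0 short days between D18 and D30, by 2.87 (limma adjusted p = 8.6e-05).

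The rest of the 20 highest-ranked members with a symbol were mostly low in level or changed late. XIE, a myosin of class XI, had 338, 86.8 and 30.9 at D40 in Col-0 long days, and 1.62 or less in the 12 earlier libraries. HO4 (AT1G58300), a haem oxygenase of phytochrome chromophore synthesis, fell in short days to 8.55, 21.2 and 15 at D30, against 162, 162 and 216 at D18, a change of -3.58 ± 0.86 (SE; limma adjusted p = 0.00089). PYL6, an abscisic acid receptor, had 94.6, 71.4 and 69.9 at D30 and 61.6, 22 and 54.3 at D18 in long days, and was called in none of the 6 comparisons. CHX19, a cation/proton exchanger, was called in none either, with 116, 122 and 119.9 at D30 and 69.7, 50.3 and 105 at D18 in long days. PYL6 and DREB2C are neighbours on the chromosome, and their Pearson correlation over the 45 libraries, a description only, was 0.13.

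Several members share annotation features that the rule did not use. Of the 150, 135 are protein-coding, 10 are long non-coding RNAs, and 1 each is a transcribed pseudogene, a pseudogene, a ribosomal RNA, a small nucleolar RNA and another non-coding RNA. Among the protein-coding members 43 (31.9%) have a single exon, against 11.2% of the ranked protein-coding genes, and the median number of exons was 3 against 5. An opposite-strand gene covers 50% or more of the exon length in 15 members (10%, against 5.61% of ranked genes). The 15 hold both AT1G05523 and AT1G20070, and both AT1G04767 and AT1G10110. Overlap of any extent with an opposite-strand gene was found in 47 of 150 members and 5321 of 16411 ranked genes, which are similar shares. In 5 cases both genes of an opposite-strand overlap are members: AT1G04767 with AT1G10110, AT2G06355 with RLP18, AT1G08645 with PPCK1, AT1G05523 with AT1G20070, and AT2G03925 with RPI2. AT1G05523 and AT1G20070 had a correlation of 0.99 over the 45 libraries, so their values are close to 1 signal. The counts of called members above still hold both genes, as they hold both PPCK1 and AT1G08645. The part of these features in the module's values was not tested.

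AT1G20070, an uncharacterised protein chosen for mention after its values were seen, had 892, 1313 and 996 at D30 and 342, 112 and 243 at D18 in long days. In short days it had 173, 117 and 139 at D30 and 1565, 1797 and 1641 at D18. The difference of 5.87 ± 0.56 (SE; limma adjusted p = 1.5e-09) belongs to it and its antisense partner together. AT3G22970, a protein of unknown function chosen the same way, had 6167, 6386 and 5935 at D30 and 2117, 1844 and 1665 at D18 in long days. It had 1619, 1741 and 1613 at D30 and 3948, 4140.2 and 4252 at D18 in short days. Its difference was 3.03 ± 0.28 (SE; limma adjusted p = 7.7e-10), with no overlap between days in either day length.

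Pentatricopeptide repeat proteins, which edit and process organelle RNA, account for 9 members (6.00%, against 1.56% of ranked genes), among them LOJ, MEF9 and OTP87. The family was noticed after the members were known. None was called in the difference between day lengths, 1 rose in Col-0 long days and 1 in Col-0 short days between D18 and D30, and 6 rose and 0 fell in tcx5/6 over that interval, in which 25.6% of all genes tested rose. How the 256 ranked genes of this family changed as a whole was not examined. Whether the tcx5/6 count is particular to the members is therefore not known. In tcx5/6 at D45 against D13, 2 rose and 0 fell, with a median log2 change of 0.43, where 30.1% of all genes tested rose. Their median log2 change was 0.88 in Col-0 long days, 0.18 in Col-0 short days and 2.42 in tcx5/6 between D18 and D30. AT1G23450 of this family had 369, 60.1 and 25 at D40 in Col-0 long days, with replicate 1 far above the others.

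Of 29 pathway lists with 508 genes in the table, 384 of them ranked, 3 genes were members: RGL2, TT5 and SAPX. Among all 16411 ranked genes 150 are members, a similar share, so nothing is read from this count. No member stood in the lists of leaf senescence, clock or flowering-time genes, or among the cell type markers listed. The lists are not complete: CDF3, of the family that represses CONSTANS and FT, and FRL2, a FRIGIDA-like gene, are members outside them. Of 19 leaf senescence genes tested, 10 rose and 2 fell in Col-0 long days between D18 and D30, 14 rose and 0 fell in Col-0 short days, and 2 were positive and 5 negative in the difference, with a median of -0.96. The antioxidant list, which holds SAPX, had 3 positive and 1 negative of 13 genes in the difference and a median of -0.11.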

How the data were processed

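Polyadenylated RNA from first true leaves was sequenced in 45 non-stranded libraries, 3 in each of 15 groups set by genotype, day and light regime, per the labels. The values deposited by the authors are a signal: HTSeq counts for each gene, scaled by a DESeq2 size factor for the library. Per the submitters' processing notes, reads were handled with Trim Galore 0.6.6 with cutadapt, STAR 2.7.1a, DESeq2 1.40.1 and HTSeq 2.0. Neither the genome build nor the annotation or counting options are given in the sources used here. Dividing by each library's value of 1 read gave whole reads for 100% of values within 0.01. Summary rows stayed out of all totals; reads outside any feature made up 46.0% to 48.2% and ambiguous ones 0.111% to 0.238%.

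The members and the gene lists were chosen with earlier results of these data known. Members were ranked on group means of log2(value + 1). Tests were run in R 4.3.3 with limma 3.58.1, on log2(value + 1), with 15 group means, a trend in the spread, 30 residual degrees of freedom, 23493 genes with at least 10 in at least 3 libraries, and Benjamini-Hochberg adjustment over them; a call is a two-sided adjusted p under 0.05. Fold changes on this scale understate those of low genes. Named members were the 20 highest-ranked with a symbol, up to 4 called members with the smallest adjusted p in each of 6 comparisons, members of the lists, and the genes beside the limit; others are marked as chosen after their values were seen, or stand as examples of a family or overlap. On the recovered reads, edgeR 4.0.16 called 43 members higher and 5 lower in Col-0 long days, 17 and 31 in short days, and 29 and 0 in the difference, and DESeq2 1.42.0 was a further alternative. Labels give the same replicate numbers to every group, but deviations of same-numbered libraries correlated at only -0.012 to 0.054, so the numbers were not used to pair libraries. In simulated data of 23493 genes, with 100 genes changed by 1 and 100 by 2 on the log2 scale in 1 group, the fit called 47 and 100 of them in the Col-0 long-day comparison, with 12 unchanged genes, and 14 and 89 in the difference between day lengths, with 8 unchanged genes. Gene names and promoters came from RefSeq (TAIR10.1), matched by locus for 37051 genes and all 150 members; no coordinates are given. Intervals and p-values do not cover errors in the labels.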

Additional observations from a re-analysis of the deposited data

Results flagged for a closer look

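The change between D18 and D30 differed between Col-0 long days and Col-0 short days, by a test of that difference, in 29 of 150 members, all with the higher change in long days, where 4.41% of genes tested had a higher one. Among members with a symbol, the difference on the log2 scale (limma, long days minus short days, 3 libraries in each of 4 groups) was 7.20 for ERF53, 3.26 for CDF3, 2.95 for BRG2 and 2.83 for BRH1. It was 2.63 for RTFL8, 2.21 for UGT71B1, 2.19 for TT5 and 1.96 for PPCK1. It was 1.66 for TSBtype2, 1.49 for SAPX and 1.32 for BRG1.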

How the results depend on the processing

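Single members were followed in 145 called values, of named members and of those that rose in long and fell in short days. Of these values, 107 kept their direction and their call under every alternative run. Of 2577 alternatives, 2440 left a value on its side of the threshold, 137 lost the call and 0 turned the direction. Some of these members were named for a small adjusted p, so the shares do not cover all called members. With only the groups of a comparison in the fit, 29 members rose and 43 fell in Col-0 short days (31.3% and 29.0% of all genes), 37 were higher and 36 lower in long days than in short days at D30 (22.8% and 27.9%), 28 members and 3319 of all genes rose and 13 members fell in tcx5/6 between D18 and D30, and 34 members and 2082 genes were positive, and 0 members and 2854 genes negative, in the difference between day lengths. Quantile normalisation moved the median of all genes by 0.13 in that difference and by 0.16 between day lengths at D30; it gave 34 members and 2173 genes positive in the difference, 38 members higher in long days at D30 (22.4% of all genes), and a members' median of 0.10 there and of 0.15 for tcx5/6 at D45 against D13. Leaving out single libraries gave 32 to 38 members that rose and 2 to 5 that fell in Col-0 long days, 11 to 15 and 26 to 29 in Col-0 short days, 25 to 29 and 0 to 1 in the difference, 16 to 17 and 23 to 27 between day lengths at D30, 36 to 49 and 15 to 18 in tcx5/6 between D18 and D30, and 29 to 35 and 33 to 38 at D45 against D13, where the members' median ran from -0.14 to 0.073 (without tcx5/6 D45 replicate 3). The cause of these shifts was not tested. With the replicate number as a block, 42 members rose and 5 fell in Col-0 long days, 17 and 31 in short days, and 29 and 0 in the difference; 22 and 28 were higher and lower at D30, and 44 and 19, and 34 and 39, in tcx5/6. The choice of members kept 66 of 150 with a minimum mean of 200, 142 with TMM scaling, 109 with quantile normalisation, 126 with a pseudocount of 10, and 121 to 141 without single libraries. Members listed at 0 in short days at D40, and libraries whose marker genes go against the labels, limit what the values can show.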
